A study of Homo sapiens with 4 samples.

Results

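Genes of cholesterol synthesis and uptake were described by the histone marks found in and around them in MHCC97L cells, an established human hepatocellular carcinoma line. The genes were taken by name: the synthesis enzyme genes HMGCS1, FDFT1, SQLE and LSS, the regulator genes SREBF2 and INSIG1, and the lipoprotein receptor gene SCARB1, 7 of 19970 protein-coding genes. Chromatin immunoprecipitation with sequencing gave 1 library for each of 3 marks, trimethylated and monomethylated lysine 4 of histone H3 (H3K4me3 and H3K4me1) and acetylated lysine 27 of the same histone (H3K27ac). The cells were labelled wild type, received no treatment and grew in serum-containing medium, a single condition. A further input library was not analysed here.

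Each gene was taken with 50000 bp on both sides, which is called its locus. On the hg38 build HMGCS1 spans chr5:43287470-43313412, FDFT1 chr8:11795582-11839298, SQLE chr8:124998505-125022283, LSS chr21:46188446-46228774, SREBF2 chr22:41833105-41907305, INSIG1 chr7:155297878-155310235 and SCARB1 chr12:124776856-124863864. A summit is the single base with the highest pile of reads in a peak, and its score is the −log10 of the p-value or q-value that the authors' peak caller gave it. Scores rank summits within the list of 1 mark and are no comparison of signal between marks. A summit was placed at a boundary within 1000 bp of either end of the gene, in the gene when further inside, and distal when further outside. With 1 library per mark there was no replicate spread and no test, so every value describes these libraries.

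Cholesterol is built from acetyl-CoA, and its synthesis is set by sterol-sensing proteins of the endoplasmic reticulum. HMGCS1 makes HMG-CoA from acetyl-CoA and acetoacetyl-CoA, FDFT1 joins farnesyl diphosphate units to squalene, SQLE oxidises squalene and LSS closes the ring to lanosterol. SREBF2 encodes the transcription factor SREBP-2, which is freed from its membrane when sterols are low and binds sterol regulatory elements of the synthesis genes, while INSIG1 holds the SREBP escort protein SCAP in the endoplasmic reticulum when sterols are high. SCARB1 encodes SR-BI, the receptor through which hepatocytes take up cholesteryl esters from high-density lipoprotein. H3K4me3 is known from active promoters, H3K27ac from active promoters and enhancers, and H3K4me1 from enhancers and promoter flanks.

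The RefSeq promoter table (GRCh38.p14, the coordinates of hg38) gave a start site for HMGCS1, LSS, SREBF2 and INSIG1. The 250 bases before each of these 4 starts are shown because H3K4me3 and H3K27ac summits lay on either side of them. Capitals mark the letters TCACNCCAC, a core of the sterol regulatory element, CCAAT, the box bound by NF-Y, and GGGCGG, the box bound by Sp1, on either strand. All are written in the direction of the gene, on the minus strand for HMGCS1 and LSS and on the plus strand for SREBF2 and INSIG1.
HMGCS1, chr5:43313413-43313662: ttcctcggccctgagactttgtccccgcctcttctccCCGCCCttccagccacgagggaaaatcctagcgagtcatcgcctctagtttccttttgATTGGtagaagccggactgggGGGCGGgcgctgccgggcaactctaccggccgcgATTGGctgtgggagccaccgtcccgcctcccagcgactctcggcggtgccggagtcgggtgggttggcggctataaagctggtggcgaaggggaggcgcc
LSS, chr21:46228775-46229024: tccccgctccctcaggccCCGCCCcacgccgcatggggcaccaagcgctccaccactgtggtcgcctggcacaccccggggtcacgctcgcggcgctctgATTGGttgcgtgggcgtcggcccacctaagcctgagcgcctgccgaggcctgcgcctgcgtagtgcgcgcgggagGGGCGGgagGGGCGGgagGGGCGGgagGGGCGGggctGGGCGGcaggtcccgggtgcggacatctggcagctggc
SREBF2, chr22:41832855-41833104: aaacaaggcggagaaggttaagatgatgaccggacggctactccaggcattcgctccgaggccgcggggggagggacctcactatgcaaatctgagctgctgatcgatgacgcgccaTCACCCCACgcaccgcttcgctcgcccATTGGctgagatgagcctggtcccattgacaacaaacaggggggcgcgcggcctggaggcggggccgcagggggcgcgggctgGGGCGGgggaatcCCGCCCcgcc
INSIG1, chr7:155297628-155297877: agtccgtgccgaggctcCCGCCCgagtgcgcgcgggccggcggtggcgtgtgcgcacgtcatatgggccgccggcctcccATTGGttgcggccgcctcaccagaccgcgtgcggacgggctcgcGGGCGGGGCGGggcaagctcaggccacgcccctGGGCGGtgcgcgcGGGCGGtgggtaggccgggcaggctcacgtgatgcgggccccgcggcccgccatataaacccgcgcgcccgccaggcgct

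The sterol regulatory core was found before SREBF2, where TCACCCCAC began 133 bp upstream of the start, and in none of the other 3 stretches. It occurred in 0.873% of 15812 promoters of protein-coding genes of the same length. CCAAT was found in all 4 stretches, each time on the opposite strand as ATTGG, between 170 bp (INSIG1) and 100 bp (the nearer of a pair in HMGCS1) upstream of the start. ATTGG was found in 19.8% of all these promoters, and CCAAT on either strand in 34.5%. GGGCGG on either strand was found in all 4 stretches and in 55.8% of promoters. LSS had 6 copies, 5 of them in a row between 75 bp and 33 bp upstream of its start, and in INSIG1 a pair of its 5 copies overlapped by a base. These matches describe the letters, and binding was not measured.

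All 4 genes with a known start carried H3K4me3 and H3K27ac on both sides of it within 1000 bp, against 15.0% of genes with a start for H3K4me3 and 20.6% for H3K27ac. HMGCS1 had H3K4me3 of 50.3 at 445 bp downstream and 5.58 at 569 bp upstream, and H3K27ac of 27.3 at 119 bp downstream and 5.52 at 482 bp upstream. LSS had H3K4me3 of 38.1 at 743 bp downstream and 29.6 at 642 bp upstream, and H3K27ac of 9.67 at 178 bp downstream and 10.8 at 673 bp upstream. From its outer start HMGCS1 thus had its high scores on the downstream side, while the sides of LSS were nearer to each other in score. SREBF2 had H3K4me3 of 25.5 at 814 bp downstream and 8.32 at 585 bp upstream, and H3K27ac of 24.5 at 291 bp downstream and 15.5 at 452 bp upstream. INSIG1 had H3K4me3 of 56.5 at 953 bp downstream and 21.5 at 792 bp upstream, and H3K27ac of 18.0 at 221 bp downstream and 30.1 at 335 bp upstream. The higher H3K4me3 summit was the downstream one in each of the 4, as in 81.7% of the 2369 genes with H3K4me3 on both sides. For H3K27ac the higher summit was the downstream one in HMGCS1 and SREBF2, 2 of 4 genes, against 60.1% of the 3262 genes with H3K27ac on both sides.

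**Figure D1:**
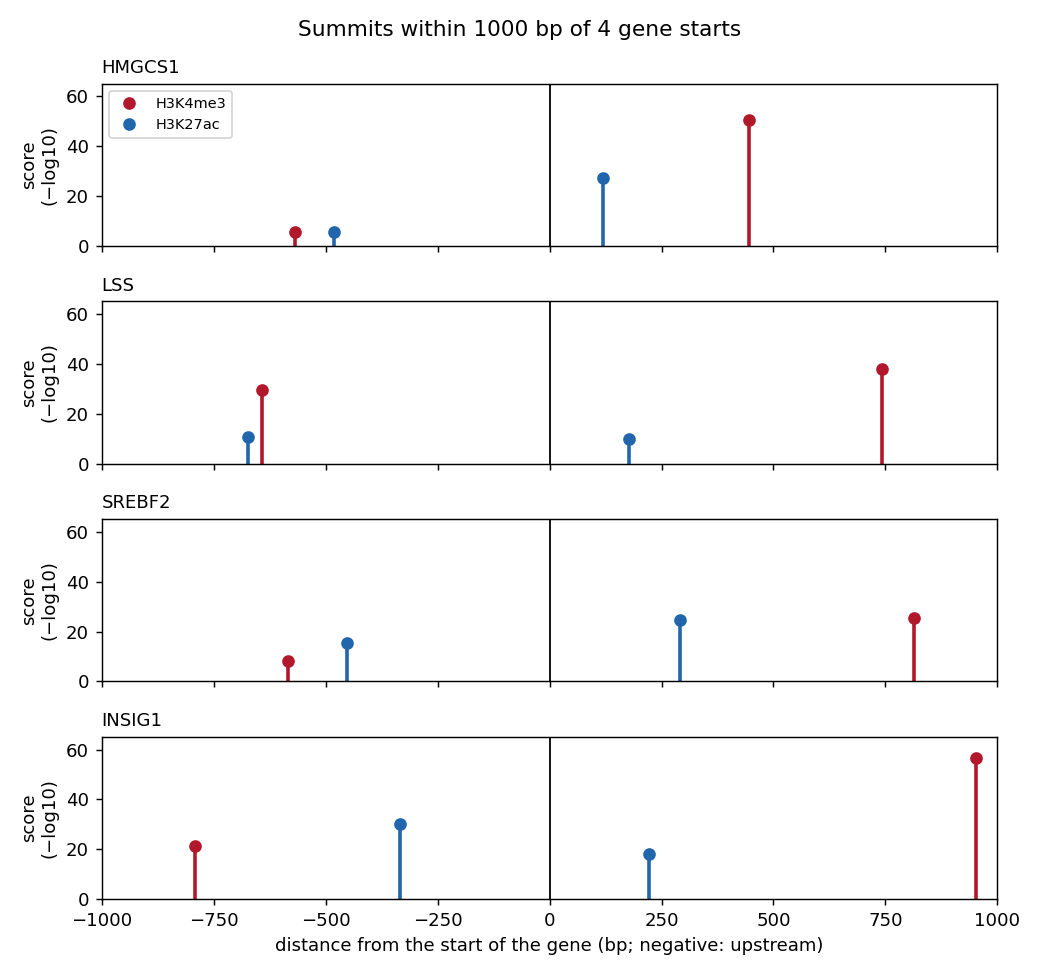
Scores (−log10, vertical) of the H3K4me3 and H3K27ac summits within 1000 bp of the start of HMGCS1, LSS, SREBF2 and INSIG1, against distance from the start in bp (negative upstream). Each gene has 1 summit of each mark on either side of its start, with H3K27ac nearer to the start than H3K4me3 on the downstream side (for HMGCS1, the outer of its 2 listed starts).

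Both marks on both sides of the start were found in these 4 genes and in 7.99% of the 15812 protein-coding genes with a start, or 16.1% of the 7870 that had both marks within 1000 bp of it. The pattern was picked after the values were seen, and it depends on the window and the score: at 500 bp 0 of the 4 genes showed it, and with scores of at least 10 only 1 did. HMGCS1 has a further listed start 231 bp inside the gene, and from that one both H3K27ac summits lay upstream, at 112 and 713 bp. With the pattern required at every listed start it was found in 3 of the 4 genes, against 6.66% of genes with a start. Within 1000 bp of the start both marks were present at all in 49.8% of protein-coding genes with a start. On the downstream side the H3K27ac summit lay nearer to the start than the H3K4me3 summit in 4 of 4 genes, taken from the outer start of HMGCS1, against 72.3% of the 1264 genes with this pattern. On the upstream side it did so in 3 of 4 genes, LSS being the exception, against 55.5%. No H3K4me1 summit lay within 1000 bp of any of the 4 starts, as in 94.5% of all genes with a start. The nearest was 7096 bp from the start of INSIG1, 7346 bp from SREBF2, 39393 bp from LSS and 54810 bp from HMGCS1.

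For SQLE, SCARB1 and FDFT1 the summits are given by the ends of the gene. SQLE had a single H3K4me3 summit in its locus, and its score of 103 was above that of 99.4% of the H3K4me3 list. It lay 1075 bp inside the lower-coordinate end of the gene, just past the boundary window. Around it lay 4 H3K27ac summits: 21.3 at 348 bp before that end, then 9.29, 5.81 and 3.11 at 0.367, 1.69 and 2.65 kb inside it. Within 1000 bp of the same end lies SQLE-DT, the noncoding gene named as the divergent transcript of SQLE.

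SCARB1 had H3K4me3 of 98.0 at 730 bp inside its higher-coordinate end, with H3K27ac of 35.8 at 214 bp from it and of 38.5 at 330 bp outside the gene. FDFT1 had no summit of any mark within 1000 bp of either end. Its H3K4me3 summits of 28.2 and 55.2 lay 6.73 and 7.56 kb inside the lower-coordinate end, with an H3K27ac summit of 34.4 between them at 7.29 kb. Further H3K27ac summits, of 32.9 and 37.5, lay at 4.51 and 5.22 kb. The gene limits used are outer limits in RefSeq, and the starts of single FDFT1 transcripts were not used here. In all 7 genes the highest H3K4me3 summit of the gene or its boundaries had an H3K27ac summit between 214 bp (SCARB1) and 732 bp (INSIG1) away. The share of all protein-coding genes with H3K27ac this close to their highest H3K4me3 summit is not given. Whether this closeness sets the 7 genes apart was therefore not tested.

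Counted by boundary, 5 of the 7 genes carried the pair of H3K4me3 and H3K27ac at 1 end, all but FDFT1 and SQLE, against 47.4% of protein-coding genes. With a window of 500 bp 1 of the 7 did, against 31.1%. H3K4me3 was found at a boundary of 5 (56.8% of all genes) and H3K27ac at a boundary of 6 (54.1%). With the inside of the gene counted too, both marks were present in all 7, against 61.2% of protein-coding genes. Taken singly, H3K4me3 was then found in 69.0% and H3K27ac in 64.5% of protein-coding genes. With the flanks, H3K4me3 and H3K27ac were found in 7 of 7 loci, against 86.8% and 84.8%, and H3K4me1 in 5 of 7, against 71.1%. H3K4me1 was found at a boundary of LSS (5.42, at the end opposite its start) and SCARB1 (best 9.58), 2 of 7, against 12.4%. With the inside of the gene counted too it was found in 4 of 7, adding FDFT1 and SREBF2, against 40.4%. A long noncoding RNA gene had a boundary within 1000 bp of a boundary of SQLE, LSS, INSIG1 and SCARB1, 4 of 7, against 17.1%.

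**Figure D2:**
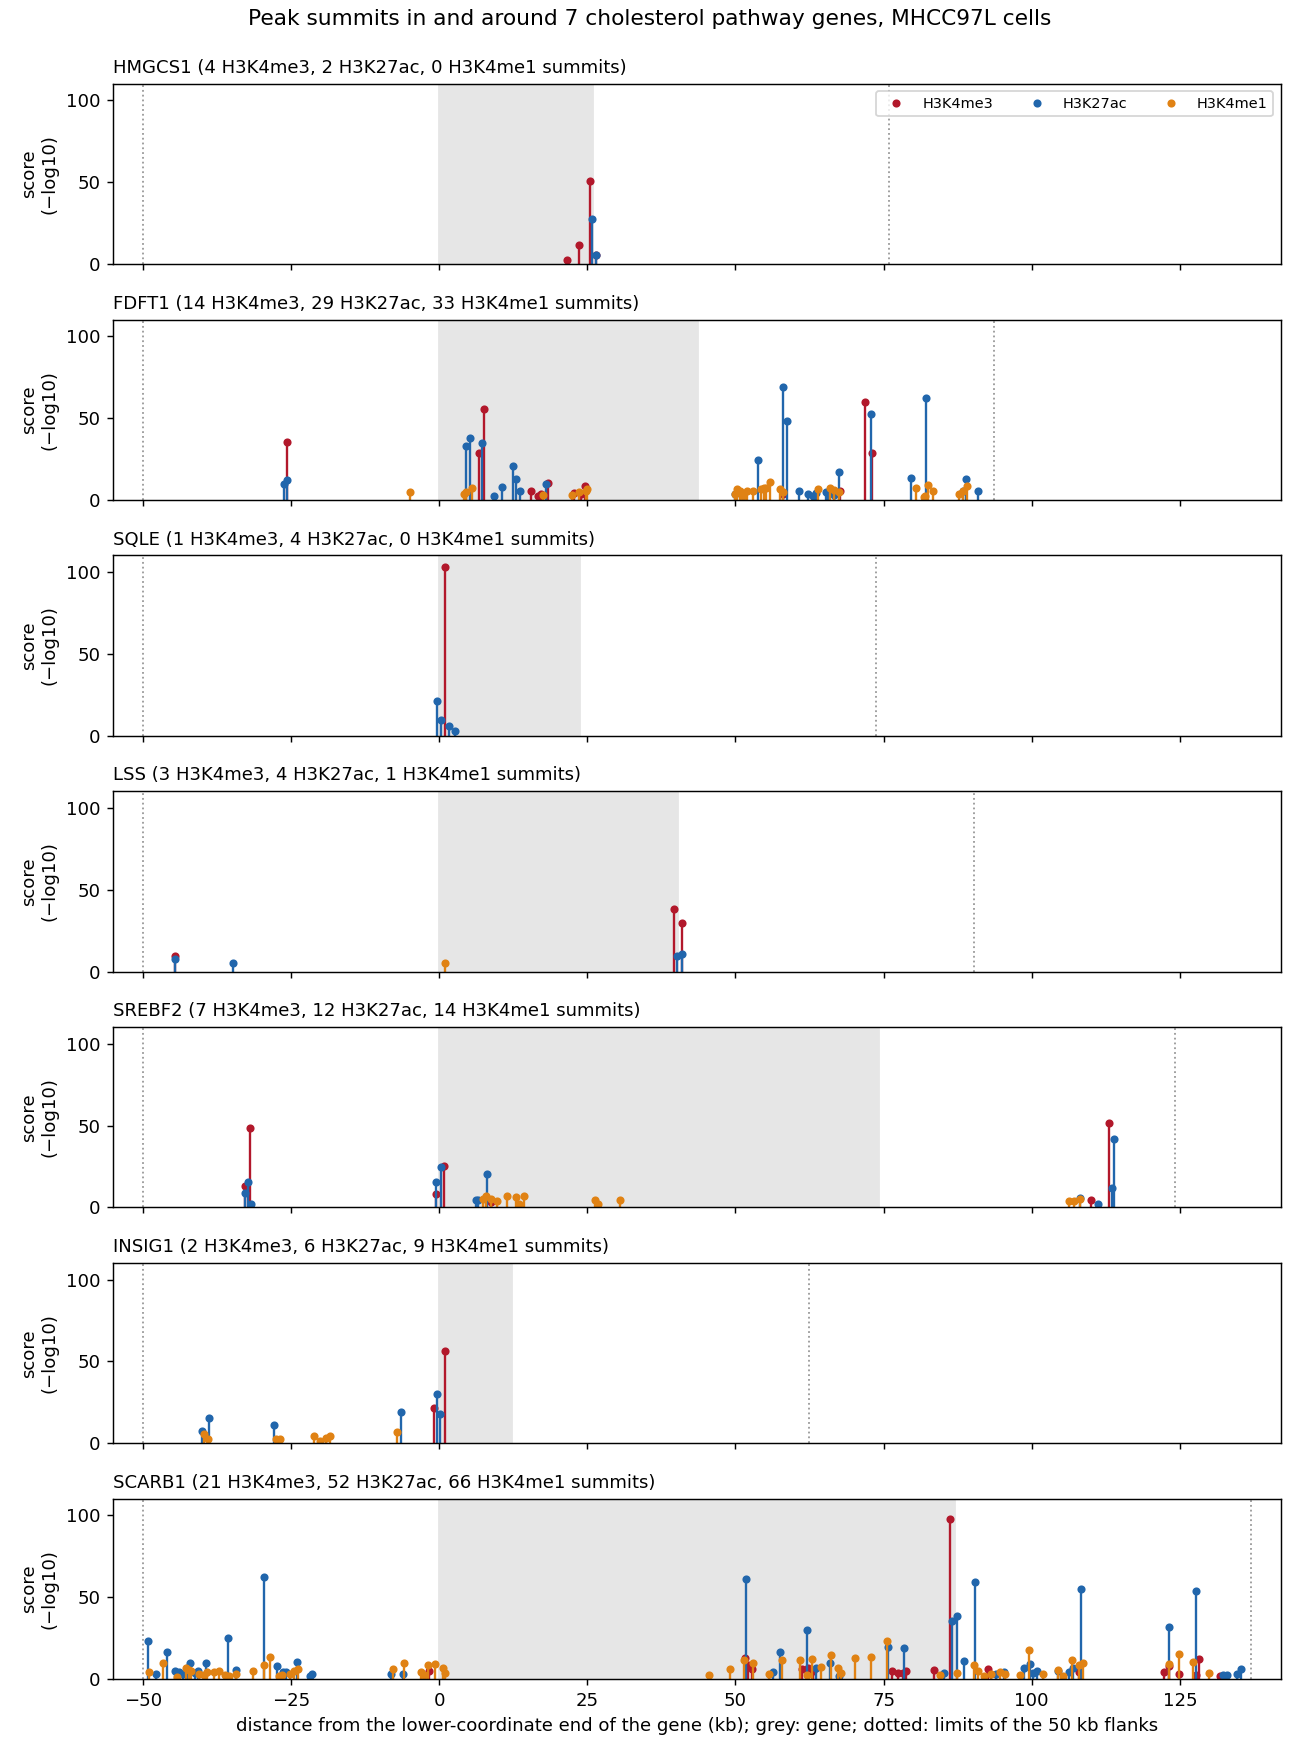
Score (−log10, vertical) of every H3K4me3, H3K27ac and H3K4me1 summit in the 7 loci against distance in kb from the lower-coordinate end of each gene. Grey marks the gene and dotted lines the limits of the flanks; SCARB1 and FDFT1 hold most summits, and HMGCS1 and SQLE have summits near 1 end only.

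The 7 loci held 284 summits, and they were spread unevenly. SCARB1 alone had 139 of them (48.9%). By mark, SCARB1 and FDFT1 together had 35 of 52 H3K4me3 summits (67.3%), 81 of 109 H3K27ac summits (74.3%) and 99 of 123 H3K4me1 summits (80.5%). The median over the 7 loci was 4 H3K4me3, 6 H3K27ac and 9 H3K4me1 summits, against 4, 5 and 4 over all protein-coding genes with the same flanks. Of the H3K4me3 summits 9 were at a boundary, 24 in the gene and 19 distal, of the H3K27ac summits 12, 24 and 73, and of the H3K4me1 summits 5, 36 and 82. The median score of H3K4me3 was 29.6 at boundaries, against 5.36 in the genes and 6.46 at distal places. For H3K27ac it was 19.6 at boundaries, against 9.83 in the genes and 6.06 at distal places. For H3K4me1 the 3 places were close, at 5.42, 5.86 and 5.00. The medians of the whole lists were 8.23 for H3K4me3, 8.40 for H3K27ac and 4.58 for H3K4me1. Medians by place pool the 7 loci, which differ in how their summits are placed. Of the 24 H3K4me3 summits in genes, 11 were in SCARB1 and 9 in FDFT1, which had none at a boundary.

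**Figure D3:**
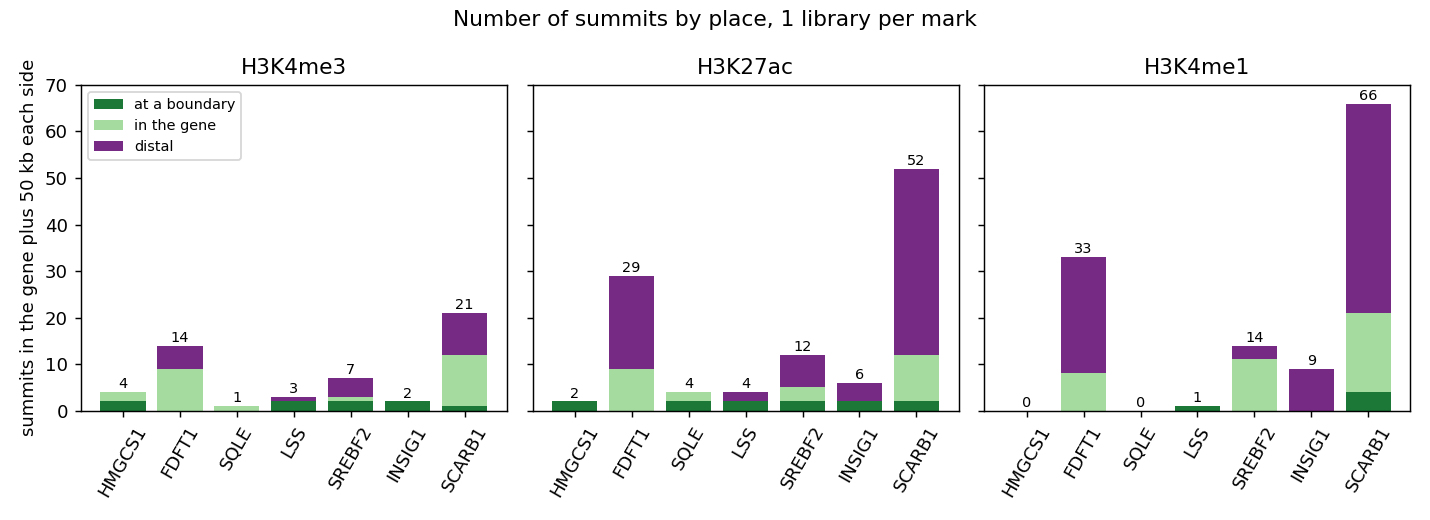
Number of summits in each gene plus 50 kb on each side, by mark and by place (at a boundary, in the gene, distal). SCARB1 leads for each mark with 21, 52 and 66, and HMGCS1 and SQLE have no H3K4me1 summit.

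SCARB1 stood at the high end of all genes for its surroundings. Its 52 H3K27ac summits exceeded the number at 99.9% of protein-coding genes, its 66 H3K4me1 summits that at 99.6% and its 21 H3K4me3 summits that at 98.6%. The gene is 87.0 kb long, and per 100 kb the locus had 27.8 H3K27ac and 35.3 H3K4me1 summits. Ranks of summit numbers, here and for the other loci below, are not adjusted for gene length, and the densities were not ranked. Distal H3K27ac lay on both sides, with 22 summits below the lower end and 18 above the higher end. The highest of them were 62.3 at 29486 bp below the lower end, and 59.5, 55.1 and 54.0 at 90.5, 108 and 128 kb from the lower end, that is past the higher end. Each had an H3K4me1 summit between 28 and 469 bp away.

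Within SCARB1, apart from H3K4me1 near the lower end, the summits lay in the part towards the higher-coordinate end. No summit of any mark lay between 0.932 and 45.5 kb from the lower end, 51.2% of the gene. At 51.8 kb an H3K27ac summit of 61.3, above 94.7% of its list, had H3K4me3 of 12.7 at 66 bp and H3K4me1 of 11.9 at 255 bp. At 75.8 kb H3K27ac of 19.7 lay 226 bp from an H3K4me1 summit of 23.6. That score was above the best H3K4me1 score of 99.5% of the genes with H3K4me1, and above 99.9% of the H3K4me1 list. Of the 10 H3K27ac summits in the gene 9 had H3K4me1 within 1000 bp, and 4 had both other marks.

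FDFT1 had 29 H3K27ac and 33 H3K4me1 summits in its locus, more than 98.3% and 96.2% of protein-coding genes. Most of them belonged to the flank above its higher-coordinate end, with 18 distal H3K27ac and 24 distal H3K4me1 summits there. That flank contains CTSB, the gene of the lysosomal protease cathepsin B. Of the 20 distal H3K27ac summits of the FDFT1 locus 13 lay inside another protein-coding gene, CTSB or the DNA repair gene NEIL2. The highest distal H3K27ac summit was 68.8 at 58.1 kb from the lower end, with H3K4me1 10 bp and H3K4me3 36 bp away, and 62.2 at 82.2 kb had H3K4me1 184 bp away. In FDFT1 itself 3 of 9 H3K27ac summits had H3K4me1 within 1000 bp.

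The remaining loci had fewer distal summits of each mark than SCARB1 and FDFT1. SREBF2 had 12 H3K27ac and 14 H3K4me1 summits, more than 80.5% and 80.3% of protein-coding genes. Of its 7 distal H3K27ac summits 5 lay at boundaries of its neighbours CCDC134, MEI1, CENPM and SMIM45. Inside SREBF2, H3K27ac of 20.1 at 8.06 kb had H3K4me1 226 bp away. The gene itself held 11 H3K4me1 summits, the first at 7.35 kb and the last at 30.6 kb. The next stretch, between 30.6 and 106 kb from the start, had no summit of any mark. It holds MIR33A, the gene of miR-33a, which is known to target the cholesterol exporter ABCA1 and is processed from SREBF2 transcripts. MIR33A lies at chr22:41900944-41901012, 67.8 kb into SREBF2, and its nearest H3K27ac summit was 40.3 kb away. Its mature 5p strand is shown with its seed (bases 2 to 8) in capitals.
hsa-miR-33a-5p: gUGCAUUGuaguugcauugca

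INSIG1 had 4 distal H3K27ac summits, all below its lower-coordinate end, with scores of 7.62, 15.5, 11.4 and 19.2 at 39984, 38767, 27819 and 6386 bp from it. Each of the 4 had H3K4me1 within 1000 bp. The locus had 9 H3K4me1 summits, more than 69.1% of protein-coding genes, all distal and on the same side. Past 0.953 kb inside INSIG1 no summit of any mark followed up to the limit of its upper flank. LSS had 2 distal H3K27ac summits, of 7.53 and 5.52, both inside FTCD and both without H3K4me1 within 1000 bp. The one of 7.53 had H3K4me3 of 9.40 at 67 bp. HMGCS1 and SQLE had no distal summit of any mark, and their nearest H3K4me1 summits lay 54810 and 87464 bp from an end of the gene.

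No H3K4me1 summit in the gene or its flanks was found at HMGCS1 and SQLE, 2 of 7 genes, against 28.9% of all protein-coding genes and 16.6% of those with both promoter marks in the gene. Distal H3K27ac was read further only where no boundary of another protein-coding gene lay within 1000 bp. Of 63 such summits 50 had H3K4me1 within 1000 bp, 79.4% (95% Wilson interval 67.8 to 87.5, for counting error only). Among all H3K27ac summits over 1000 bp from every protein-coding boundary the share was 62.9%. That set is not a like one, because it holds summits inside genes too. Of the H3K27ac summits inside the 7 genes 14 of 24 had H3K4me1 within 1000 bp (58.3%). Of the 63 summits, 38 belonged to SCARB1 (31 with H3K4me1) and 17 to FDFT1 (14 with H3K4me1). Without SCARB1 the count was 19 of 25, 76.0% (56.6 to 88.5). The summits of 1 locus share their surroundings and are not independent. With a window of 500 bp the count was 37 of 66. With scores of at least 10 in every list it was 3 of 21. That limit kept 47 of 109 H3K27ac summits and 16 of 123 H3K4me1 summits of the loci. It is also stricter for the whole H3K4me1 list. A score of 10.06 was above 92.2% of that list, and a score of 10.15 above 56.6% of the H3K27ac list. The whole-list share of H3K27ac summits with H3K4me1 nearby at these settings is not given. Among the 63 summits the median H3K27ac score was 6.93 with H3K4me1 nearby, against 3.67 without it.

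The best score of each gene, boundaries included, ranged from 25.5 (SREBF2) to 103 (SQLE) for H3K4me3. The median of the 7 was 55.2, against 53.4 over the 13784 protein-coding genes with the mark. SQLE and SCARB1 were above 97.9% and 96.6% of these genes, while SREBF2 and LSS were above 20.2% and 30.0%. For H3K27ac the best scores ranged from 10.8 (LSS) to 61.3 (SCARB1). The median of the 7 was 27.3, against 32.9 over 12886 genes. SCARB1 was above 81.0% of genes and LSS above 13.1%. SQLE stood high for H3K4me3 and, with a best H3K27ac of 21.3, above 30.8% of the genes for H3K27ac.

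**Figure D4:**
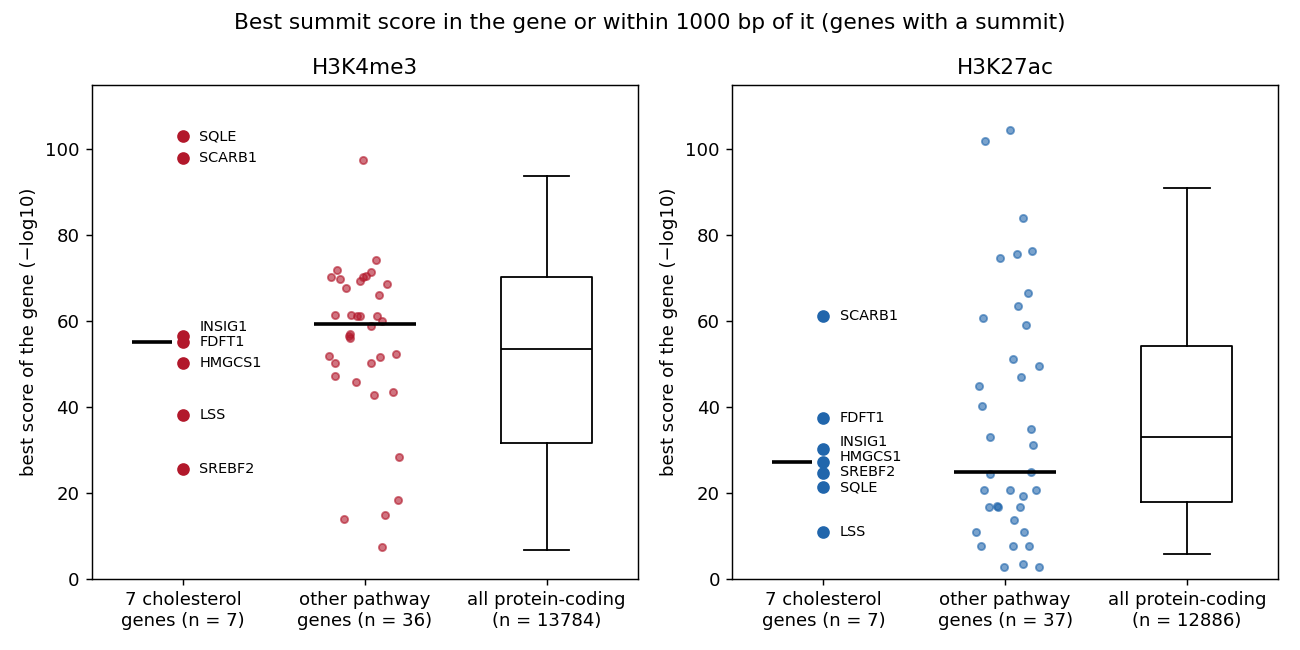
Best H3K4me3 and H3K27ac score (−log10) of each gene with such a summit, boundaries included, for the 7 cholesterol genes, the other pathway genes and all protein-coding genes. Points are genes, black lines medians, and the box shows quartiles with whiskers at the 5th and 95th percentiles; the 7 medians are 55.2 and 27.3, against 53.4 and 32.9 over all genes.

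In the other genes of the pathway, 30 of 40 carried the pair of marks at 1 boundary, against 47.4% of protein-coding genes. The interval of their share (75.0%, 59.8 to 85.8) is for counting error only and is no test. With the inside of the gene counted too, both marks were found in 35 of the 40, against 61.2%. Among synthesis enzymes 14 of 17 had the pair. ACAT2, which makes acetoacetyl-CoA, had H3K4me3 of 50.3 and H3K27ac of 32.9 at its boundaries and shares boundary windows with TCP1 and SOD2. MVK, the mevalonate kinase gene, had 68.6 and 14.1 and shares one with MMAB. The 3 without the pair were PMVK, LBR and TM7SF2. PMVK, the phosphomevalonate kinase gene, had 71.4 and 102 inside the gene, and LBR, a sterol reductase gene of the nuclear envelope, had H3K4me3 of 72.0 inside the gene and H3K27ac of 74.8 at a boundary. TM7SF2, another sterol reductase gene, had H3K4me3 of 7.37 and no H3K27ac.

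Among regulators 7 of 8 had the pair, against 47.4% of protein-coding genes. INSIG2, the paralogue of INSIG1, had boundary scores of 66.1 for H3K4me3 and 24.5 for H3K27ac. SREBF1, which encodes SREBP-1, had 57.0 and 76.3, and 41 H3K4me1 summits in its locus. MBTPS1, the gene of the protease that makes the first cut in SREBPs, had 51.8 and 16.7. SCAP, the gene of the sterol-sensing SREBP escort, was the exception at the boundary, with H3K4me3 of 8.32 there and the 2 marks at 74.2 and 16.7 inside the gene.

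Among genes of uptake, transport and storage 8 of 13 had the pair (61.5%), against 47.4% of protein-coding genes. LRP1, an endocytic receptor gene, had H3K4me3 of 70.2 and H3K27ac of 84.0 at a boundary and 32 H3K27ac summits in its locus, and NPC1L1, the gene of the intestinal cholesterol transporter, had 7.57 and 3.49. ABCA1, the gene of the cholesterol exporter, had H3K4me3 of 52.4 at a boundary and H3K27ac of 13.7 only further inside. ABCG1, another exporter gene, had 14.0 and 7.53 inside the gene. SOAT2, a gene of cholesterol esterification, had no H3K4me3 in the gene. H3K4me1 lay in or next to 12 of the 13 genes of this group and 6 of the 17 enzyme genes, against 40.4% of protein-coding genes. Of the bile acid genes, CYP27A1 had 42.9 and 59.0 at a boundary, while the locus of CYP7A1, the rate-limiting enzyme gene of bile acid synthesis, held no summit.

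Genes most like each of the 7 were sought over 6 measures, the best score and the number of summits in the locus for each mark, as percentiles among protein-coding genes. HMGCS1 was nearest to TTC4 and PGGT1B, with mean differences of 0.499 and 0.538 percentile points, both without any H3K4me1 summit. SCARB1 was nearest to PEDS1 (1.17) and PRKCA (1.35). Near the top of the range a small difference in percentile can hide a large one in number. PRKCA had 60 H3K4me3, 85 H3K27ac and 174 H3K4me1 summits in its locus, against 21, 52 and 66 at SCARB1. FDFT1 was nearest to CPD (2.38) and PNKD (2.40), and SREBF2 to PLCG2 (1.78) and SERPINB6 (2.37). SQLE was nearest to CCDC86 (2.07) and GOLGB1 (2.64), INSIG1 to IDH3A (2.77) and KLHDC4 (2.83), and LSS to RCL1 (3.09) and EEIG2 (3.60). Among the 7 themselves, FDFT1 and SCARB1 were the closest pair (12.2) and HMGCS1 and SQLE the next (14.8), and HMGCS1 and SCARB1 were the farthest apart (56.8).

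The label of liver cancer cells was set against marker genes. Of 8 hepatocyte and liver cancer markers 4 had both promoter marks at a boundary, namely TF, HNF4A, KRT8 and KRT18, against 47.4% of protein-coding genes. TF shares a boundary window with TOPBP1, and the overlapping genes KRT8 and KRT18 had the same best boundary scores, 107 for H3K4me3 and 93.1 for H3K27ac. AFP had both marks inside the gene, and ALB, APOA2 and TTR carried none of the 3 marks there or at a boundary. Of 6 fibroblast, endothelial and immune markers none had the pair at a boundary (47.4% of protein-coding genes), and 2, PECAM1 and PTPRC, had both marks with the inside of the gene counted too (61.2%). With so few markers these counts do not establish the cell type. The part of other cell types in the values above was not tested.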

How the data were processed

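For each mark the authors deposited 1 summit list, giving a position and a score on the −log10 scale, taken from a p-value or a q-value without saying which. The lowest score corresponds to 0.0496. Per the submitters' processing notes the tools were MACS2, deepTools, Picard and Bowtie and the build hg38. Their versions and settings, and how the input was used, were not given in the sources used here. Chromosomes 1 to 22 and X held 46078 H3K4me3, 70028 H3K27ac and 86366 H3K4me1 summits. Read depth is unknown, and the score depends on it.

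Gene limits came from NCBI RefSeq GRCh38.p14, and starts, strands and sequences from a RefSeq promoter table of 250 bases before to 50 after a start, which matched 4 of the 7 genes. Where it lists several starts (4048 genes, HMGCS1 among them), the one at the end of the gene was used, or else the first listed. Places, counts and percentiles were computed with Python 3.11.15, pandas 2.3.3 and SciPy 1.17.1 and tested on simulated summits. Tests were not possible with 1 library per mark. Windows of 500 and 2500 bp, a score of at least 10 and flanks of 25000 and 100000 bp were tried. The genes and lists were chosen with earlier results of these data known. All 40 pathway genes matched by symbol. Those named are, per role, the first 3 written with the pair and the first 3 without, except 2 that are counted but not named. Neighbours are named where a summit of a locus lies within 1000 bp of their boundary, and the 2 most alike genes per gene come from outside the 7 loci. Intervals are 95% Wilson intervals, for counting error only. Sequences on chromosome 8 are not shown.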

Additional observations from a re-analysis of the deposited data

How the results depend on the processing

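Of 33 recomputed values, 19 stayed within 1.5 times the reported count and 14 did not. This limit was set on counts and not on shares. Distal H3K27ac summits with H3K4me1 nearby were 37 of 66 at 500 bp and 56 of 59 at 2500 bp, against 50 of 63 at 1000 bp. They were 24 of 30 with flanks of 25000 bp and 71 of 103 with flanks of 100000 bp. The whole-list share of 62.9% belongs to the window of 1000 bp without a score limit. With a window of 500 bp, H3K4me3 with H3K27ac was found at the same boundary of 1 of the 7 genes (31.1% of all genes). At that window the pair was near the start of 1 of 4 genes and at the same boundary of 18 pathway genes. H3K4me1 was then at a boundary of 1 gene, and both marks lay on both sides of the start in 0 of 4 genes (2.69% of genes with a start). With a score of at least 10 in every list, the loci kept 20 H3K4me3, 47 H3K27ac and 16 H3K4me1 summits, and 0 genes had H3K4me1 at a boundary. At that score 3 of 21 distal H3K27ac summits had H3K4me1 nearby, and 1 of 4 starts had both marks on both sides (4.79% of genes with a start). With every listed start required, 3 of 4 genes had both marks on both sides. The window, score and start alternatives for both sides of the start were added after seeing the data. With flanks of 25000 bp there were 66 H3K27ac summits and 24 distal ones with H3K4me1, and with flanks of 100000 bp 90 H3K4me3 summits. Both marks were present in the gene for all 7 genes under each window and score tried, against 61.2% of all genes at the main setting. For both marks near the start the main share was 49.8% of genes with a start, and for H3K4me1 at a boundary 12.4% of all genes. For these 3 results the shares at the other settings are not given. A higher score limit or a shorter flank leaves fewer summits by construction. In the loci the limit of 10 removed a larger part of the H3K4me1 summits than of the other marks. Scores near 10 also rank higher in the whole H3K4me1 list than in the other 2 lists. A shorter window finds fewer marks near a boundary or start, but it also counts more H3K27ac summits as distal, 66 at 500 bp, 63 at 1000 bp and 59 at 2500 bp. No paired analysis was possible because each mark had 1 library. Read depth limits how many weak H3K4me1 summits can be called, and it is unknown.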

Other observations

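Several neighbours in the 7 loci carried promoter marks of their own at boundaries. CTSB, next to FDFT1, had H3K4me3 summits of 59.7 and 28.2 and H3K27ac of 52.6 within 1000 bp of a boundary. NEIL2, on the other side of FDFT1, had H3K4me3 of 35.3 with H3K27ac of 11.9 and 9.67. On the lower-coordinate side of SREBF2, CCDC134 had H3K4me3 of 48.7 and H3K27ac of 15.5. On its other side SMIM45 had H3K4me3 of 51.8 and H3K27ac of 41.8, and that H3K27ac summit also lay within 1000 bp of a boundary of CENPM. CCDC134 and SMIM45 had higher H3K4me3 scores than SREBF2 at its own start (25.5). Beside the best H3K4me3 score of FDFT1 (55.2), that of CTSB was higher and that of NEIL2 lower.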
